A study of Mus musculus with 16 samples.

Results

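Genes that mark GABAergic interneurons, the inhibitory neurons of the dentate gyrus, were followed by name: Gad1, Gad2, Slc32a1, Pvalb, Reln, Lhx6 and Dlx1. These are 7 of the 24421 gene names in the expression tables. They were taken by symbol, and 7 of 7 were among the 17317 genes tested. The measurement was bulk RNA sequencing of dissected dentate gyri of male C57BL/6 mice aged 12 months. The study asked which genes accompany the activation of neural stem cells by running when p16 is lost. Mice lacking p16Ink4a in all cells (p16 KO), with the neighbouring p19Arf left functional, were compared with p16 wild-type mice (p16 WT). Mice of each genotype were sedentary (CTL) or had free access to a running wheel for 12 days (RUN). The 4 groups had 4 libraries each: p16 WT CTL (replicates 1 to 4), p16 KO CTL (replicates 5 to 8), p16 WT RUN (replicates 9 to 12) and p16 KO RUN (replicates 13 to 16). A library pooled the dentate gyri of 2 animals, and variation from animal to animal was therefore not seen.

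Levels are given in TPM, a share of all transcripts after correction for gene length, as computed by the authors with StringTie. Genes can therefore be compared with each other within a library. Fold changes are on the log2(scaled TPM + 0.1) scale, after the libraries had been brought to a common median, and tests are limma tests over the 17317 genes. The study called genes at an unadjusted p under 0.05, and this threshold is used here beside the Benjamini-Hochberg adjusted p.

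Interneurons make GABA from glutamate with glutamate decarboxylase, whose forms are encoded by Gad1 and Gad2. The vesicular transporter encoded by Slc32a1 then loads GABA into synaptic vesicles. Dlx1 and Lhx6 encode homeodomain transcription factors that specify interneurons during their birth in the ganglionic eminences, Lhx6 in the lineage of the medial eminence. Pvalb encodes the calcium buffer parvalbumin of fast-spiking basket and chandelier cells. Reln encodes the secreted glycoprotein reelin, made in the adult hippocampus by interneurons of the hilus and molecular layer and by surviving Cajal-Retzius cells. Interneurons of the dentate gyrus release GABA onto granule cells and onto the neural stem cells of the subgranular zone.

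All members are protein-coding genes of the mm10 genome. In the expression tables Gad2 lies on the plus strand at chr2:22622327-22693877, Gad1 at chr2:70562164-70602012, Dlx1 at chr2:71529445-71533980 and Slc32a1 at chr2:158610758-158615747. Lhx6 lies on the minus strand at chr2:36081953-36105408, Pvalb at chr15:78191118-78206351 and Reln at chr5:21884454-22344705. Dlx1as, a noncoding gene on the opposite strand from 71530638 to 71537891, shares 335 exonic bases with Dlx1 in the GENCODE annotation, 6.21% of the exonic bases of Dlx1. It was listed at 13.5 to 28.6 TPM (median 18.8), above Dlx1 in 16 of 16 libraries, with a Dlx1 to Dlx1as ratio of 0.485 to 0.903. The strand setting of the StringTie run is not given in the sources used here, so reads from the shared bases may have been split between these genes. Gad1os, antisense to the start of Gad1, reached 0.859 TPM at most.

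The promoters of the members shown here belong to the genes that were higher after running (Reln and Gad1) and to the pair that varied together most closely (Gad2 and Slc32a1). Each runs from 250 bases before to 50 bases after the RefSeq start, in the GRCm38.p6 assembly, read 5′ to 3′ on the strand of the gene, with every CpG in capitals. They lie at chr5:22344656-22344955 (minus strand, Reln), chr2:70561879-70562178 (plus strand, Gad1), chr2:22622077-22622376 (plus strand, Gad2) and chr2:158610508-158610807 (plus strand, Slc32a1).
Reln: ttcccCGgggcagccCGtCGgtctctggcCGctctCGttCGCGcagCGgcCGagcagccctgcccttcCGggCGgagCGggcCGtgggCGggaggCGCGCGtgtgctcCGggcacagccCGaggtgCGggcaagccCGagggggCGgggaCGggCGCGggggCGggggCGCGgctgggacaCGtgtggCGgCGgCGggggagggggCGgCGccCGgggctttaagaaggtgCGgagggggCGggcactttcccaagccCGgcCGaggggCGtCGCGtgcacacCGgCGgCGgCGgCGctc
Gad1: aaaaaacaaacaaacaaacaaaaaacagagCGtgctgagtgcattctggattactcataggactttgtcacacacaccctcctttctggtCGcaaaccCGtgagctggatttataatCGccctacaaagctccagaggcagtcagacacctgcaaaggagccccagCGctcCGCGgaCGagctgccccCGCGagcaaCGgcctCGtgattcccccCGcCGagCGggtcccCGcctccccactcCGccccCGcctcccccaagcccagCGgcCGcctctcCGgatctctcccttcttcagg
Gad2: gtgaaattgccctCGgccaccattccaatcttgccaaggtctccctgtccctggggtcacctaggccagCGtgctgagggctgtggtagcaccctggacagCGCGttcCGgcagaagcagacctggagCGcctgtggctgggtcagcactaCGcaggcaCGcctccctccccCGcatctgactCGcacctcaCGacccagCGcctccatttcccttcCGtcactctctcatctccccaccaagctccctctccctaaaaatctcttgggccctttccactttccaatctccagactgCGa
Slc32a1: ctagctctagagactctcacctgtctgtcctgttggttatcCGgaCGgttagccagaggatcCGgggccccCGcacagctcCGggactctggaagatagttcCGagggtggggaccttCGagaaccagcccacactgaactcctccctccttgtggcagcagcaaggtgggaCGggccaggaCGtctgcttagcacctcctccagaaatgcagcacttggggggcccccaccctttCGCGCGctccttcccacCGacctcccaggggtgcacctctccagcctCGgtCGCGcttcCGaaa

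The Reln promoter held 47 CpGs at 80.7% GC, more CpGs than 98.6% of 32851 mouse promoters of the same length, whose median was 7. The Gad1, Slc32a1 and Gad2 promoters held 21, 17 and 14 CpGs. The upstream promoter of Pvalb (chr15:78206351-78206650, minus strand) held 5, the fewest among the 10 promoters that RefSeq gives for the 7 members. The letters GGGCGG, a GC box, searched on both strands, occurred 6 times in the Reln promoter. The Gad1 and Dlx1 promoters and the first and second Lhx6 promoters held 1 match each, and the other promoters of the members held none. At least 1 match was found in 35.7% of all promoters. TAATTA, a core recognised by homeodomain factors such as those of Dlx1 and Lhx6, was found in 0 of the 10 promoters and in 5.29% of all. TATAAA on either strand was found in the Gad1 promoter and in the third Lhx6 promoter, against 13.6% of all. These counts describe the letters of the windows only.

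The libraries differed in ways that bear on some members. The sum of 8 nuclear long noncoding RNAs was 977 TPM in replicate 2 (p16 WT CTL) and 541 and 479 TPM in replicates 6 and 7 (p16 KO CTL), against 1828 to 2533 TPM in the other 13 libraries. Results of members that rest on these libraries, and those of several list genes, are given with and without them, an alternative added after the data were seen. Summed markers of CA1 pyramidal neurons, a neighbouring field, reached 178 TPM in a p16 KO CTL library, against 42.0 to 97.0 TPM in the libraries of the other 3 groups. The granule neuron gene Prox1 was detected in each library, at 58.1 to 187 TPM. Summed granule neuron markers were uneven, from 511 TPM in replicate 8 to 1408 TPM in replicate 3. Cdkn2a, the gene that encodes p16, was at most 0.586 TPM in any library and at 0 in at least 1 library of each group, and does not tell the genotypes apart. The median coverage of the libraries relative to their mean ran from 0.621 (p16 WT RUN) to 1.95 (replicate 2), and the tables give no read counts from which a counting error could be taken. The lowest coverage per base among the members was 23.4, for Dlx1 in a p16 WT RUN library.

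Gad1 was by far the most abundant member, at a mean of 279 TPM over the 16 libraries. Gad2 followed at 67.9 TPM, Slc32a1 at 61.6, Pvalb at 35.1, Reln at 19.8, Lhx6 at 17.2 and Dlx1 at 12.9. Gad1 did not overlap Gad2 in range (243 to 316 TPM against 56.5 to 78.8 TPM). Each later pair of neighbours overlapped in range over the 16 libraries. Within single libraries Slc32a1 was above Pvalb, Pvalb above Reln and Lhx6 above Dlx1 in 16 of 16, Gad2 above Slc32a1 in 15 and Reln above Lhx6 in 13. The ratio of Gad1 to Gad2 was 3.59 to 4.88 (median 4.09), and that of Gad2 to Slc32a1 was 0.987 to 1.23. The spread between libraries of a group also set the members apart. The SD of the log2 values within groups was 0.065 for Gad1, lower than in all but 4.33% of the genes tested. It was 0.11 for Reln, 0.16 for Gad2, 0.19 for Lhx6 and Slc32a1, 0.25 for Dlx1 and 0.32 for Pvalb. Among genes of at least 10 TPM the median SD was 0.13 and Pvalb was at percentile 93.2.

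**Figure D1:**
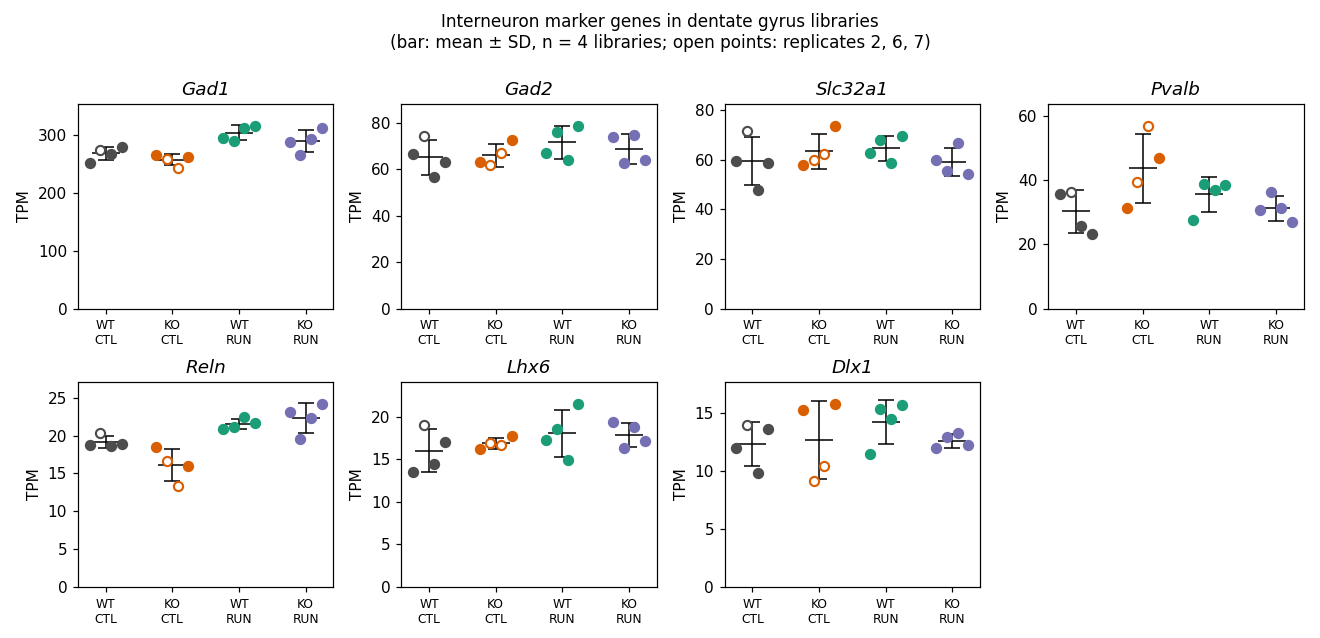
TPM of the 7 members (vertical axes, from 0) in each of the 16 libraries by group, with mean ± SD over 4 libraries and with replicates 2, 6 and 7, low in nuclear RNA, as open points. Reln and Gad1 were higher in the RUN groups, whereas Pvalb was highest and most scattered in p16 KO CTL.

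Reln was the member that differed most clearly with running. Its level was 18.8, 20.4, 18.6 and 18.9 TPM in p16 WT CTL (mean 19.2 ± 0.805, SD, n = 4) and 20.9, 21.2, 22.4 and 21.7 TPM in p16 WT RUN (21.6 ± 0.68). For the knockout it was 18.5, 16.6, 13.4 and 16.0 TPM without the wheel (16.1 ± 2.11) and 23.2, 19.6, 22.3 and 24.2 TPM with it (22.3 ± 1.97). Every running library lay above every sedentary library of its own genotype in TPM, and the lowest value of all was that of replicate 7.

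Over both genotypes Reln rose 1.21-fold with running (log2 fold change 0.28, 95% confidence interval 0.16 to 0.40, adjusted p = 0.0391). An exact permutation of the running labels within genotypes, two-sided over 4900 relabellings, gave p = 0.00122. It was the only member with an adjusted p under 0.05 in this comparison, in which 0.751% of the genes tested (130 of 17317) passed. Without 1 library at a time the log2 fold change stayed at 0.25 to 0.31, but the adjusted p ran from 0.0233 to 0.0858. Without replicates 2, 6 and 7 the log2 fold change was 0.28 and the adjusted p = 0.128. With the nuclear RNA level as a covariate and all 16 libraries in the fit these were 0.27 and adjusted p = 0.166. Markers of other cell types also moved with running over both genotypes. At an unadjusted p under 0.05, which 9.87% of all genes passed as higher and 8.02% as lower, 3 of 4 endothelial markers (median log2 fold change 0.31) and 1 of 7 granule neuron markers (median 0.24) were higher. Lower were 2 of 5 astrocyte, 2 of 5 microglial, 1 of 5 oligodendrocyte and 1 of 5 choroid plexus markers (medians -0.13, -0.17, -0.16 and -0.45). The endothelial sum was 46.5 to 68.8 TPM and, after running, 64.5 to 71.6 TPM in the wild type, and 35.3 to 72.3 and 60.9 to 94.3 TPM in the knockout, and no marker of these lists was at 0 except in the choroid plexus list, where up to 2 of 5 were. Their part in the changes of Reln and Gad1 was not tested. In bulk tissue, more cells that express a gene and more RNA per cell cannot be told apart.

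By genotype, Reln was 1.32-fold higher in p16 KO RUN than in p16 KO CTL (Set A, log2 fold change 0.41, 0.20 to 0.61, adjusted p = 0.145, exact permutation p = 0.0286, the smallest that 4 against 4 libraries allow). Reln had an unadjusted p under 0.05 in Set A under 12 of 12 alternatives and with each of the 8 libraries left out in turn, at log2 fold changes of 0.34 to 0.46 in the latter. For running in the wild type (Set C) its log2 fold change was 0.16 (adjusted p = 0.985, exact permutation p = 0.0857). There the scaled values of the groups overlapped through replicate 2, and without replicates 2, 6 and 7 the log2 fold change was 0.21, at an unadjusted p under 0.05 (adjusted p = 0.783). The change with running was larger in the knockout than in the wild type by 0.25 on the log2 scale (interaction, adjusted p = 0.797), past the unadjusted threshold in limma. The permutation of running labels gave p = 0.204 for this difference. Its null is no running effect in either genotype, so it does not test equal running effects alone. The same holds for every other interaction permutation given here. Without replicates 2, 6 and 7 the difference was 0.14 and no longer past the threshold (adjusted p = 0.781). Comparing the genotypes, Reln had a log2 fold change of -0.20 among sedentary mice (Set B, exact permutation p = 0.0571) and of 0.052 among running mice (Set E, exact permutation p = 0.429). In Set D, which sets p16 KO RUN beside the sedentary wild type, it was 0.21 (adjusted p = 0.514, exact permutation p = 0.0571). It was past the unadjusted threshold there, but in only 2 of 8 fits with 1 library left out (lost without replicate 1, 3, 4, 13, 15 or 16).

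In the rest of the reelin pathway a receptor gene rose with running. Over both genotypes, 1 of its 9 listed genes was higher and 1 lower at an unadjusted p under 0.05, near the 9.87% and 8.02% of all genes tested, and the median log2 fold change was 0.015, against 0.013 over all genes. Lrp8, the apolipoprotein E receptor that binds reelin, was at 39.3 to 54.3 TPM in sedentary and 48.2 to 66.0 TPM in running wild-type mice, and at 34.4 to 49.0 and 58.8 to 61.0 TPM in the respective knockout groups. The groups of the knockout did not overlap, and those of the wild type did. Lrp8 rose 1.29-fold with running over both genotypes (log2 fold change 0.36, adjusted p = 0.0449, permutation p = 0.00286). Its unadjusted p stayed under 0.05 with each of the 16 libraries left out in turn and under 11 of 11 other alternatives, with adjusted p-values of 0.0243 to 0.300. In Set A it was 1.39-fold higher (adjusted p = 0.0861). Pafah1b1, whose product acts downstream of reelin on the microtubule motor dynein, was lower with running (log2 fold change -0.62, adjusted p = 0.178, permutation p = 0.0363). With the nuclear RNA level as a covariate its log2 fold change was -0.53, and the unadjusted p was no longer under 0.05. Without the libraries low in nuclear RNA the log2 fold change was -0.48, still at an unadjusted p under 0.05. Pafah1b1 took 2 distinct levels, 285 to 310 TPM in replicates 2, 4, 5 and 6 and 118 to 141 TPM in the other 12 libraries.

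Cajal-Retzius cells are the other source of reelin in the dentate gyrus, and their list was measured beside it. Of its 7 genes, 0 had an unadjusted p under 0.05 by limma with running over both genotypes, and its median log2 fold change was 0.036. Its summed level was 169 to 233 TPM in p16 WT CTL and 137 to 204 TPM after running, and 165 to 246 TPM in p16 KO CTL and 175 to 296 TPM after running. Most of this sum was Calb2, at 124 to 279 TPM over the 16 libraries, a gene that mossy cells and interneurons also express. Trp73, a transcription factor gene of these cells, was at 2.09 to 3.18, 2.16 to 2.64, 1.57 to 3.03 and 3.05 to 3.24 TPM in that order. It was 1.42-fold higher in Set A (adjusted p = 0.253, exact permutation p = 0.0571) and 1.30-fold higher in Set E (adjusted p = 1, exact permutation p = 0.0286), with an interaction of 0.69 (adjusted p = 0.797, permutation p = 0.0224). Of the list, 2 of 7 genes were higher at an unadjusted p under 0.05 in Set E (Trp73 and Calb2), against 2.11% of all genes. For the interaction 2 of 7 were (Trp73 and Ebf3), against 2.95% of all genes, and 7 of 7 were positive, with a median of 0.53. In Set B 1 of 7 was lower, Lhx1 (0.418-fold, adjusted p = 0.625, at no more than 0.487 TPM), against 3.54% of all genes, and the median of the list was -0.22. Lhx1 was also lower with the knockout over both treatments (0.632-fold, adjusted p = 0.674). Lhx5, another marker of these cells, did not exceed 0.42 TPM in any library. The part of these cells in the level of Reln was not tested.

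Gad1 was also higher after running, by a smaller amount. It was at 252, 273, 267 and 279 TPM in p16 WT CTL (268 ± 11.6, SD, n = 4) and at 295, 289, 313 and 316 TPM in p16 WT RUN (303 ± 12.9). In sedentary knockout mice it was at 265, 258, 243 and 261 TPM (257 ± 9.64) and in p16 KO RUN at 288, 265, 293 and 313 TPM (289 ± 19.6). The wild-type groups did not overlap, and in the knockout only replicate 14, at 265 TPM, reached down to the highest sedentary library.

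Over both genotypes Gad1 was 1.10-fold higher with running (95% confidence interval 1.04 to 1.16, adjusted p = 0.0944, permutation p = 0.00122). Leaving out 1 library gave log2 fold changes of 0.12 to 0.15, each at an unadjusted p under 0.05. With Reln it made 2 of 7 members higher with running at an unadjusted p under 0.05, where 9.87% of the genes tested were higher and 8.02% lower. In Set C Gad1 was the single member past this threshold (log2 fold change 0.17, adjusted p = 0.985, exact permutation p = 0.0286). The threshold was not met without replicate 1 or without replicate 12. In Set C 2.69% of the genes tested were higher, 2.13% were lower, and 0% passed adjustment (0 of 17317, against 833 at an unadjusted p under 0.05). In Set A Gad1 had a log2 fold change of 0.10 (adjusted p = 0.315, exact permutation p = 0.0571). Its interaction was -0.061 (permutation p = 0.540), with a 95% confidence interval of -0.22 to 0.095.

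Gad2, the second decarboxylase gene, did not pass the unadjusted threshold with running, and whether its change differed from that of Gad1 was not tested. Sedentary and running wild-type libraries ranged from 56.5 to 74.2 and from 64.2 to 78.8 TPM, and the knockout ones from 61.7 to 72.7 and from 62.5 to 74.7 TPM, so that the groups overlapped. Its log2 fold change with running over both genotypes was 0.058 (95% confidence interval -0.10 to 0.22, permutation p = 0.483). Slc32a1 ranged from 47.8 to 71.7 TPM in sedentary and from 58.4 to 69.3 TPM in running wild-type libraries, and from 57.7 to 73.6 and from 54.1 to 66.8 TPM in those of the knockout. Its log2 fold change with running over both genotypes was -0.023 (-0.21 to 0.16, permutation p = 0.824), and 0.016 with TPM as deposited. With all libraries neither gene reached an unadjusted p under 0.05 in any of the 8 comparisons. Without replicates 2, 6 and 7 Slc32a1 did so for the interaction (log2 fold change -0.40, adjusted p = 0.674). For running over both genotypes the intervals leave room for differences of the size measured in Gad1.

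Pvalb had the widest spread of the members. With all libraries it also had the largest log2 fold change in size, except in Set D and with running over both genotypes, where Reln did. With running, the log2 fold change of Pvalb was negative in the knockout. It was positive in the wild type, where it was not past the unadjusted threshold. Pvalb was at 35.6, 36.4, 25.7 and 23.2 TPM in p16 WT CTL (30.2 ± 6.72, SD, n = 4) and at 27.6, 38.9, 36.9 and 38.6 TPM in p16 WT RUN (35.5 ± 5.32). In the sedentary knockout it was at 31.4, 39.3, 56.8 and 46.8 TPM (43.6 ± 10.8), and in the running knockout at 30.6, 36.3, 31.2 and 26.9 TPM (31.3 ± 3.86). The p16 KO CTL libraries included the highest values, replicates 7 and 8, and each pair of groups overlapped.

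In Set A Pvalb was 0.698-fold of its sedentary level (log2 fold change -0.52, 95% confidence interval -0.95 to -0.084, adjusted p = 0.233, exact permutation p = 0.0857). Set A thus had 1 member higher (Reln) and 1 lower (Pvalb), where 10.7% of the genes tested were higher, 7.74% were lower and 0.0173% (3 genes) passed adjustment. In Set B Pvalb was higher in the knockout (log2 fold change 0.58, standard error 0.23, adjusted p = 0.625, exact permutation p = 0.114). It was the single member past the threshold there, where 3.15% of genes were higher, 3.54% were lower and 0% passed adjustment. Sets A and B share the p16 KO CTL libraries on opposite sides. In Set C its log2 fold change was 0.23 (exact permutation p = 0.200) and in Set E -0.17 (exact permutation p = 0.343). The difference between Set A and Set C was -0.75 on the log2 scale (interaction, 95% confidence interval -1.36 to -0.14, adjusted p = 0.797, permutation p = 0.0331). For the interaction 2.95% of genes were higher, 2.54% were lower and 0% passed adjustment, and the members past the unadjusted threshold were Reln, higher, and Pvalb, lower.

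Replicate 7, with the highest Pvalb level, was also the library lowest in nuclear RNA, whereas replicate 8, next in Pvalb, was at 2091 TPM of nuclear RNA, within the range of the other libraries. Replicate 7 also had the highest sum of choroid plexus markers (212 TPM against 16.4 to 61.7 TPM in the others), and replicate 8 was the library with the highest CA1 marker sum. The summed markers of oligodendrocytes were highest in the same libraries, at 2244 TPM in replicate 8 and 2008 TPM in replicate 7. They ran from 1326 to 2244 TPM in p16 KO CTL and 1007 to 1345 TPM in p16 KO RUN, and from 878 to 1879 and 1106 to 1593 TPM in the sedentary and running wild type, with none of the 5 markers at 0. Their median log2 fold change was -0.41 in Set A (3 of 5 lower), 0.42 in Set B (0 of 5 past the unadjusted threshold in limma) and -0.57 for the interaction (again 0 of 5). The part of this tissue makeup in the level of Pvalb was not tested. Without replicates 2, 6 and 7 the log2 fold change of Pvalb was -0.32 in Set A (adjusted p = 0.676), 0.51 in Set B (adjusted p = 0.663) and -0.67 for the interaction (adjusted p = 0.666), and only the last kept an unadjusted p under 0.05. With the nuclear RNA level as a covariate these values were -0.30 (adjusted p = 0.695), 0.37 (adjusted p = 0.997) and -0.55 (adjusted p = 1.00), and none kept it. Leaving out single libraries kept the unadjusted p of the interaction under 0.05 in 16 of 16 fits (-0.92 to -0.59), that of Set A in 4 of 8 (lost without replicate 7, 8, 13 or 16) and that of Set B in 3 of 8 (lost without replicate 3, 4, 6, 7 or 8). Relative to the other GABA genes the pattern was similar. Per 100 units of the geometric mean of Gad1, Gad2 and Slc32a1, Pvalb was at 29.8 ± 5.36 in sedentary and 31.7 ± 4.18 in running wild-type mice, and at 42.5 ± 10.4 and 29.8 ± 5.10 in the knockout (SD over 4 libraries).

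**Figure D2:**
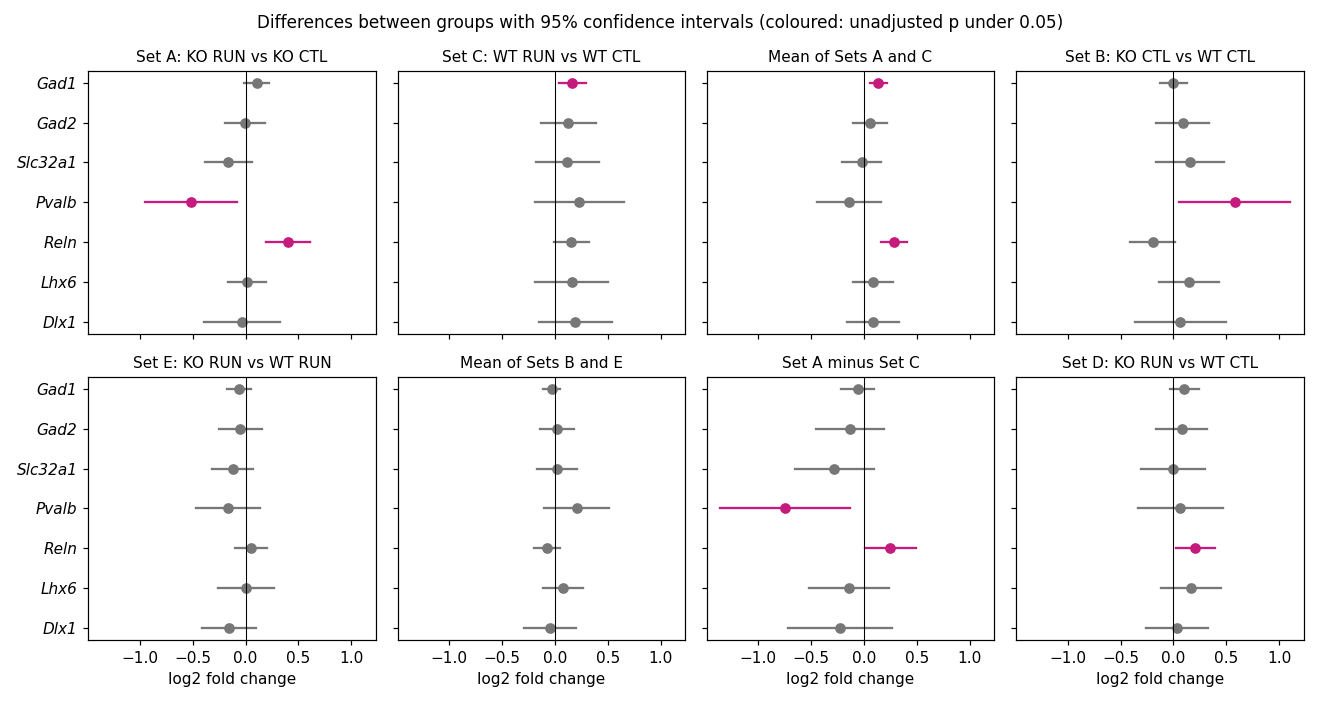
Log2 fold changes (horizontal axes) of the 7 members in 8 comparisons, with points for the estimates, lines for the 95% confidence intervals, and colour where the unadjusted limma p was under 0.05. Reln lay at 0.41 in Set A and 0.28 over both genotypes, Gad1 at 0.17 in Set C, and Pvalb at -0.52 in Set A, 0.58 in Set B and -0.75 for the difference of Set A and Set C.

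Lhx6 and Dlx1, the transcription factor genes, had no unadjusted p under 0.05 in any of the 8 comparisons with all libraries. Lhx6 ran from 13.5 to 19.0 TPM in sedentary and from 14.9 to 21.5 TPM in running wild-type libraries, and from 16.2 to 17.7 and from 16.3 to 19.4 TPM in those of the knockout. Its log2 fold change with running over both genotypes was 0.087 (95% confidence interval -0.10 to 0.28). Dlx1 was at 11.9, 13.9, 9.82 and 13.6 TPM in p16 WT CTL and at 11.4, 15.3, 14.5 and 15.6 TPM after running. In the knockout it was at 15.2, 9.10, 10.4 and 15.7 TPM without and at 11.9, 12.9, 13.2 and 12.2 TPM with running. The p16 KO CTL group split into a low pair, replicates 6 and 7, and a high pair, replicates 5 and 8, and the low pair was the pair low in nuclear RNA. Replicate 2, also low in nuclear RNA, had the highest Dlx1 of its group. Without these 3 libraries Dlx1 had log2 fold changes of -0.32 in Set A (adjusted p = 0.494), 0.44 in Set B (adjusted p = 0.663) and -0.60 for the interaction (adjusted p = 0.639), each at an unadjusted p under 0.05, where 2 p16 KO CTL libraries remained. With the covariate only Set A was past it. Without the 3 libraries Lhx6 was past it in Set D, where its log2 fold change was 0.27 (adjusted p = 0.377) against 0.16 with all libraries.

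In the remaining comparisons few members differed. In Set D Reln was the single member at an unadjusted p under 0.05, where 4.97% of genes were higher, 3.66% were lower and 0% passed adjustment. In Set E 0 of 7 members passed in limma, where 2.11% of genes were higher, 1.76% were lower and 0.00577% (1 gene) passed adjustment. For genotype over both treatments 0 of 7 passed, where 3.87% were higher, 3.25% were lower and 0% passed adjustment. The largest genotype difference among the members was that of Pvalb, at a log2 fold change of 0.21 (95% confidence interval -0.10 to 0.51, permutation p = 0.287).

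Genes of GABA transport and breakdown and of interneuron subtypes give the setting of these values. The peptide gene Sst, which marks a class of dendrite-targeting interneurons, was at 402 to 819 TPM over the 16 libraries, Cck at 601 to 1176 TPM and Npy at 134 to 268 TPM. Cck and Npy are also expressed outside interneurons in this tissue. With all libraries and no covariate none of Sst, Npy and Cck had an unadjusted p under 0.05 in any of the 8 comparisons, and their smallest was that of Sst in Set A (log2 fold change -0.34, exact permutation p = 0.200). With the nuclear RNA covariate Sst in Set A (-0.44) and Npy in Set C (0.41, against 0.27) were past it, and without replicates 2, 6 and 7 the interaction of Sst was (-0.55, against -0.27).

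Vip, the peptide gene of interneurons that target other interneurons, differed in several comparisons. It was at 8.26, 10.6, 8.22 and 14.5 TPM in p16 WT CTL and at 9.77, 19.0, 10.9 and 18.7 TPM after running. In the knockout it was at 12.0, 12.0, 14.8 and 14.8 TPM without and at 17.0, 16.6, 19.0 and 17.95 TPM with running. The p16 KO RUN libraries lay above all sedentary libraries, and the p16 WT RUN libraries formed a low and a high pair. Vip was 1.73-fold higher in Set D (log2 fold change 0.79, adjusted p = 0.246, exact permutation p = 0.0286), with an unadjusted p under 0.05 that held with each of the 8 libraries left out in turn. It was 1.26-fold higher in Set A (exact permutation p = 0.0286), 1.37-fold in Set B (exact permutation p = 0.114), 1.31-fold with running over both genotypes (permutation p = 0.0384) and 1.32-fold with the knockout over both treatments (permutation p = 0.0376). The smallest adjusted p of these was that of Set A, at 0.209. With 1 library left out Vip stayed past the unadjusted threshold in 4 of 8 fits in Set B and in 12 of 16 for running over both genotypes. In Set B it was past it in 6 of 12 other alternatives and not without replicates 2, 6 and 7. With the knockout over both treatments it was also not past it without these libraries. For running over both genotypes Vip was not past it with the nuclear RNA covariate (log2 fold change 0.38).

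Nos1, the gene of neuronal nitric oxide synthase, which marks a subset of interneurons, went the other way. It was at 54.6 to 64.5 TPM in sedentary and 43.2 to 55.9 TPM in running wild-type mice, and at 40.9 to 58.9 and 31.6 to 55.1 TPM in the knockout. It was lower with running over both genotypes (0.780-fold, adjusted p = 0.0954, permutation p = 0.00490), in Set A (0.762-fold, adjusted p = 0.255), in Set C (0.798-fold, exact permutation p = 0.0286) and in Set D (0.673-fold, exact permutation p = 0.0286). With the knockout over both treatments it was 0.863-fold (permutation p = 0.0563), past the unadjusted threshold in 7 of 16 fits with 1 library left out and not without replicates 2, 6 and 7. In the list of 24 tested subtype genes, 1 was higher and 4 were lower in Set A, with a median log2 fold change of -0.16 against 0.018 over all genes, where 10.7% of all genes tested were higher and 7.74% lower. With running over both genotypes 1 was higher and 2 were lower, against 9.87% and 8.02% of all genes. Further subtype genes past the unadjusted threshold, not all of which are named, included Htr3a, a serotonin receptor gene, at 0.816-fold in Set A (exact permutation p = 0.0286). Lamp5, a marker of neurogliaform cells, was at 0.811-fold in Set C (exact permutation p = 0.0571) and 0.898-fold with running over both genotypes. Calb2, the gene of calretinin, which in this tissue also marks mossy cells, was at 1.38-fold in Set E (exact permutation p = 0.0571). With the knockout over both treatments Calb2 was 1.24-fold (permutation p = 0.0351), but not past the threshold without replicates 2, 6 and 7.

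Among genes of GABA transport and breakdown, Slc6a11 and Abat were lower in Set A at an unadjusted p under 0.05. Slc6a11, a GABA transporter gene of astrocytes, was 0.802-fold (exact permutation p = 0.0286) and Abat, the gene of GABA transaminase, was 0.849-fold (exact permutation p = 0.0571). Abat was higher in Set B (1.20-fold, log2 fold change 0.27, exact permutation p = 0.0857), but was past the unadjusted threshold in only 2 of 8 fits with 1 library left out and not with the nuclear RNA covariate (log2 fold change 0.12). Slc6a11 was 0.886-fold with running over both genotypes (permutation p = 0.0584). Beside this astrocyte gene, the 5 astrocyte markers had a median log2 fold change of -0.34 in Set A, where Gja1 (0.751-fold, adjusted p = 0.178) and Slc1a3 (0.791-fold, adjusted p = 0.241) were lower at an unadjusted p under 0.05. Their sum was 1166 to 1887 TPM in p16 KO CTL and 1250 to 1512 TPM in p16 KO RUN, against 1183 to 1538 and 1227 to 1694 TPM in the sedentary and running wild type, and none was at 0. The part of these cells in the level of Slc6a11 was not tested. Without replicates 2, 6 and 7 neither Abat in Set A (log2 fold change -0.094, against -0.24) nor Slc6a11 with running over both genotypes (-0.070, against -0.18) was past the unadjusted threshold. Slc6a12 (Set D, exact permutation p = 0.0286) and Slc6a13 (running over both genotypes, permutation p = 0.0465) were higher, at no more than 0.79 and 7.04 TPM. With 1 library left out these held in 4 of 8 and 8 of 16 fits, and that of Slc6a12 was lost without replicates 2, 6 and 7 and with the covariate. Of the 13 transcription factor genes of the ganglionic eminences, 2 were lower in Set A (7.74% of all genes), 1 (Sp9, 0.752-fold, exact permutation p = 0.0857) was lower in Set E (1.76% of all genes; held in 2 of 8 fits with 1 library left out), and 1 (Sp8, at most 0.81 TPM) had an interaction of -1.09 (permutation p = 0.0147). None of these list genes except Lrp8 had an adjusted p under 0.05.

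**Figure D3:**
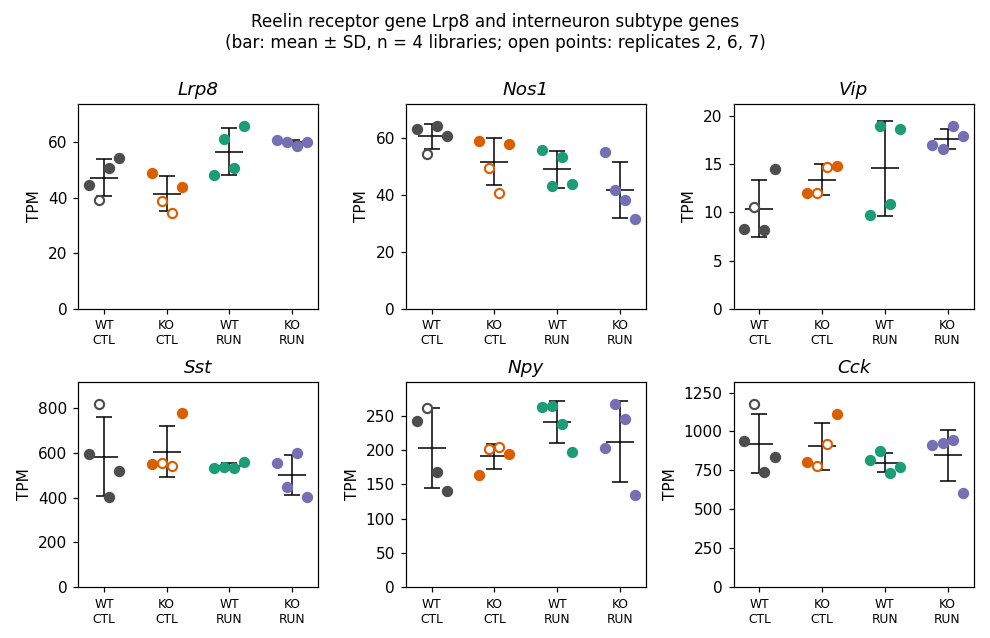
TPM (vertical axes, from 0) of the reelin receptor gene Lrp8 and of 5 interneuron subtype genes in each of the 16 libraries by group, with mean ± SD over 4 libraries and replicates 2, 6 and 7 as open points. The p16 KO RUN libraries lay above all sedentary libraries in Lrp8 and Vip, while the groups overlapped in Sst, Npy and Cck.

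From library to library the members did not vary as a single block. With the group means removed, 19 of the 21 pairs of members had a positive Pearson r over the 16 libraries, and 6 had an adjusted p under 0.05 (permutation test with 100000 resamples, Benjamini-Hochberg over the 21). Removing the group means left fewer free values than the 16 libraries shuffled. These permutation p-values are therefore too small, to an extent that was not tested. Gad2 and Slc32a1, which make and package GABA, followed each other most closely, with r = 0.946 and Spearman's rho = 0.971. The p of 1e-05 is the smallest these permutations can give. Without the 2 libraries farthest from the median of Gad2 r was 0.915, and without replicates 2, 6 and 7 it was 0.928.

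Lhx6 joined this pair, at r = 0.799 (rho = 0.847, permutation adjusted p = 0.00231) with Gad2 and r = 0.760 (rho = 0.774, permutation adjusted p = 0.00518) with Slc32a1. Pvalb had r = 0.647 with Gad2 (rho = 0.582, permutation adjusted p = 0.0398) and 0.612 with Slc32a1 (rho = 0.606, permutation adjusted p = 0.0448). Gad1 had r = 0.315 with Gad2 (rho = 0.341, permutation adjusted p = 0.397), r = 0.554 with Lhx6 (rho = 0.468, permutation adjusted p = 0.0788) and r = 0.607 with Reln (rho = 0.606, permutation adjusted p = 0.0448), and differences between these correlations were not tested. Without the 2 libraries farthest from the median of Gad1 its r with Reln was 0.404, and without replicates 2, 6 and 7 it was 0.572. By the rank correlation 3 of the 6 pairs had an adjusted p under 0.05, those among Gad2, Slc32a1 and Lhx6. Without replicates 2, 6 and 7 only the pair of Gad2 and Slc32a1 had an adjusted p under 0.05. All of these values share the same libraries and scaling factors. As the permutation p-values are too small, the pairs at an adjusted p of 0.0398 and 0.0448 may not pass.

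**Figure D4:**
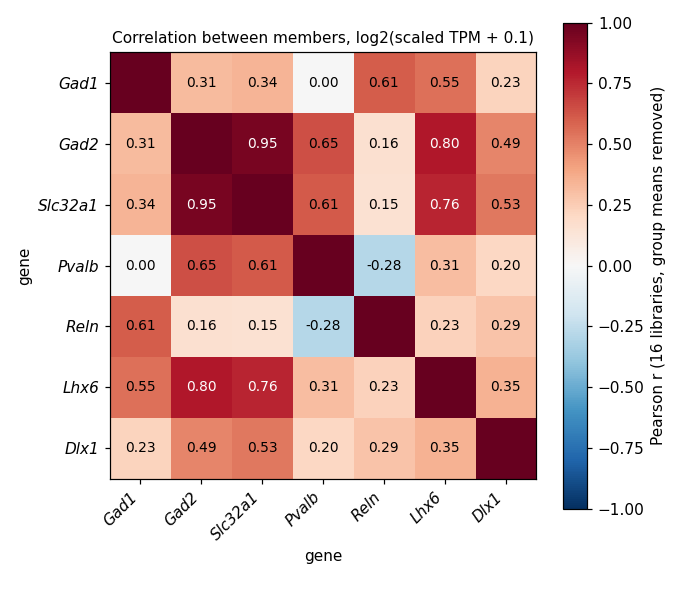
Pearson r between each pair of members over 16 libraries, on log2 values with the group means removed (colour from -1 to 1). Gad2, Slc32a1 and Lhx6 formed a block of 0.76 to 0.95, whereas Gad1 had 0.31 with Gad2 and Reln had -0.28 with Pvalb.

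Among 14431 other genes (mean at or above 1 TPM), those whose log2 values over the 16 libraries were most like each member's were given by Pearson r, as a description. They were Unc5d (0.781), 4833411C07Rik (0.770) and Slc41a2 (0.769) for Gad1, and Fam196a (0.893), Gmppb (0.869) and Efr3b (0.858) for Gad2. For Slc32a1 they were Dpysl3 (0.947), Rab3c (0.905) and Fezf2 (0.904). For Pvalb they were Chmp1a (0.932), Rab11b (0.927) and Uqcrc1 (0.926), the last a subunit gene of mitochondrial complex III. For Reln they were Pvrl1 (0.825), Gabrb1 (0.813), a GABA-A receptor subunit gene, and Mir5098 (0.811), a name that the tables give to loci on several chromosomes, among them one whose interval spans Dlx1. For Lhx6 they were Gm5617 (0.874), Ankrd34b (0.855) and Txnrd3 (0.849), and for Dlx1 Btbd11 (0.869), Kctd15 (0.862) and 6330403K07Rik (0.850).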

How the data were processed

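The authors extracted total RNA from the dentate gyri, pooled 2 animals per library and sequenced 16 libraries. Per the paper's methods and the submitters' processing notes, they used bcl2fastq 2.20, Cutadapt 1.11, ERNE, STAR with mm10 and StringTie. The TPM values, as deposited, are StringTie abundances per gene, corrected for length. The deposited FPKM values come from the same run and served as an alternative. The deposited coverage values, the mean signal per base of a gene, gave relative depth.

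Entries sharing a gene name (112 to 130 names in a library) were added up. Scaling used the median ratio of each library to the mean library, over 13226 genes at 1 TPM or more in all 16. Genes averaging 0.1 TPM or more (17317) entered limma 3.58.1 (R 4.3.3, empirical Bayes with variance trend) as log2(scaled TPM + 0.1). Sets A to E used the 8 libraries of their groups, and the other fits all 16, with Benjamini-Hochberg adjustment. Single genes were also compared by two-sided exact permutation (70 relabellings of 8 libraries, 4900 within strata). For the interaction this permutation takes no running effect in either genotype as its null. It is therefore not a test of equal running effects when running has an effect. Replicate numbers were not shared between groups. The labels do not say whether replicates differ in culture or housing, so p-values measure the spread between pools.

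Members and the 18 marker lists were chosen with earlier results of these data known. All members were named. List genes of the GABA system were named at an unadjusted p under 0.05, up to 6 per comparison, and Sst, Npy, Vip and Cck always. Some results that this rule would name are not reported here. Marker lists of further cell types and neighbouring regions served to check tissue composition. Alternatives changed the filter (1 TPM or none), the pseudocount (1 or 0.01), the scaling (none, or quantile normalization), the unit (FPKM), the libraries in the fit (all 16, or each left out in turn), the variance trend and the treatment of repeated gene names (highest value). Those on nuclear RNA were added after seeing the data. The fits were tested on simulated data. Tools were Python 3.11.15, scipy 1.17.1, pandas 2.3.3, numpy 2.4.6 and matplotlib 3.10.9.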

Additional observations from a re-analysis of the deposited data

Results flagged for a closer look

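The change of Pvalb with running differed between the genotypes by -0.75 on the log2 scale, the knockout minus the wild type (limma interaction, adjusted p = 0.797, permutation p = 0.0331). Mean levels went from 43.6 to 31.3 TPM in the knockout and from 30.2 to 35.5 TPM in the wild type. The difference was -0.67 without replicates 2, 6 and 7, which are low in nuclear RNA, and -0.55 with the nuclear RNA level as a covariate.

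The change of Reln with running differed between the genotypes by 0.25 on the log2 scale (limma interaction, adjusted p = 0.797, permutation p = 0.204). Leaving out 1 library at a time, the unadjusted p was 0.05 or above in 11 of 16 fits. For Pvalb and Reln alike, the null of the permutation is no running effect in either genotype, not equal effects.

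No library stood far from the others of its group in any of the 28 pairs of member and group by Dixon's criterion.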

How the results depend on the processing

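Of 644 log2 fold changes of members recomputed under alternatives other than leaving out a library, 593 kept their direction and their side of the threshold, 24 turned sign, 16 gained and 11 lost an unadjusted p under 0.05. Without read counts, the precision of the less abundant members, Dlx1 and Lhx6, cannot be stated from depth.

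In Set B the number of members past the unadjusted threshold, 1 in the report, was 0 with no filter, with no variance trend and with the nuclear RNA covariate, and 2 with TPM as deposited and with all 16 libraries in one fit. In Set C, 1 in the report, it was 2 with no filter, with TPM as deposited, without replicates 2, 6 and 7 and with the covariate. In Set D it was 3 without these libraries, against 1. For the interaction, 2 in the report, it was 1 with quantile normalization, 0 with the covariate and 3 without these libraries (Dlx1, Pvalb and Slc32a1). In Set A, 2 in the report, it was 3 with TPM as deposited and with quantile normalization (Gad1, Pvalb and Reln). With 1 library left out the counts were 1 to 3 in Set A, 0 to 3 in Set B, 0 to 2 in Set C, 0 to 3 in Set D, 0 to 2 in Set E, 1 to 2 for the interaction and 0 to 1 for genotype over both treatments. The count of correlated pairs, 6, was 1 without replicates 2, 6 and 7, 5 with group means kept and 4 with TPM as deposited. The cause was not tested in these cases, except that fewer libraries or genes enter some of the fits.

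The log2 fold changes that turned sign were small and none had passed the threshold. With TPM as deposited they were, in Set A, 0.057 for Gad2 and 0.033 for Dlx1, 0.0015 for Slc32a1 in Set D, -0.0042 for Lhx6 in Set E, 0.016 for Slc32a1 with running, and -0.015 for both Gad2 and Slc32a1 with genotype. With quantile normalization they were 0.00084 for Gad2 and -0.029 for Lhx6 in Set A, and with the highest value per gene name 3.5e-06 for Gad1 in Set B. Without replicates 2, 6 and 7 they were 0.00055 for Gad2 in Set A, 0.023 for Gad1 in Set B, 0.12 for Slc32a1 in Set D, and, with running, 0.036 for Slc32a1, 0.017 for Pvalb and -0.020 for Dlx1, and 0.14 for Dlx1 with genotype. With the covariate they were 0.085 for Slc32a1 in Set D, -0.0065 for Lhx6 in Set E, 0.018, 0.0086 and -0.030 for Slc32a1, Pvalb and Dlx1 with running, and -0.00636 and 0.024 for Slc32a1 and Dlx1 with genotype.

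With 1 library left out, Set A ran from -0.056 to 0.032 for Gad2, -0.028 to 0.048 for Lhx6 and -0.16 to 0.081 for Dlx1. Set B ran from -0.028 to 0.033 for Gad1 and -0.049 to 0.20 for Dlx1. Set D ran from -0.11 to 0.12 for Slc32a1, -0.067 to 0.18 for Pvalb and -0.081 to 0.12 for Dlx1, and Set E from -0.11 to 0.0042 for Gad2 and -0.092 to 0.096 for Lhx6. Running over both genotypes ran from -0.078 to 0.036 for Slc32a1. Genotype over both treatments ran from -0.019 to 0.064 for Gad2, -0.036 to 0.079 for Slc32a1 and -0.10 to 0.021 for Dlx1. No paired analysis was possible because the groups share no replicate numbers.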
